A study of Rattus norvegicus with 10 samples.

Results

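Mammary gland gene expression on the SPI diet was set directly against that on the genistein (GEN) diet in female Sprague-Dawley rats at postnatal day 50. The comparison took the arrays whose titles begin with SPI (replicates 2, 3, 4 and 5) and those whose titles begin with GEN (replicates 1, 3 and 5), 4 against 3, which together are 7 of the 10 arrays of the series. The other 3 arrays are of the CAS diet (replicates 1, 2 and 3), whose values are given as levels; they also entered the fit, so they share in the standard errors and adjusted p-values. The title of the series gives its question: what SPI or genistein feeding does to gene expression across the mammary epithelium.

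All groups were females fed a purified diet. The labels name the diets only as CAS, SPI and GEN. From knowledge of the study, SPI stands for soy protein isolate and CAS for casein. Genistein is a single soy isoflavone, whereas soy protein isolate is a whole protein fraction that can carry isoflavones. Neither a dose nor a feeding period is given in the labels. Each array carried pooled RNA from the fourth mammary gland of 2 animals. The labels describe 3 parallel labelled targets per pool without saying which arrays share one, so p-values measure the spread between these arrays, which may in part be technical. The source is labelled epithelial cells, but the labelling protocol names the gland itself, and colon appears in the design text.

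The mammary gland of the young rat is a branching epithelium embedded in fat. Its ducts and terminal end buds have an inner luminal layer and an outer basal or myoepithelial layer. Prolactin acts through its receptor, the kinase Jak2 and the factor Stat5 to switch on genes of milk proteins, and estrogen and progesterone act on a subset of luminal cells that signal to their neighbours, among others through the growth factor amphiregulin. Genistein binds estrogen receptors, and soy feeding before puberty is known for its effects on ductal differentiation in the rat.

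The start-site regions of 4 genes that lay far lower on SPI than on GEN are shown because Stat5, the factor downstream of prolactin, binds a palindrome of the letters TTCNNNGAA. Capitals mark each occurrence of those letters, which read the same on both strands. Each window holds 250 bases before and 50 bases after the annotated start, 5′ to 3′ on the gene's strand, from RefSeq on the build GRCr8. Wap lies on the minus strand at chr14:85719110-85719409, Lalba on the minus strand at chr7:131507023-131507322, Csn2 on the plus strand at chr14:20601574-20601873 and Reg3b on the plus strand at chr4:112419526-112419825.
Wap: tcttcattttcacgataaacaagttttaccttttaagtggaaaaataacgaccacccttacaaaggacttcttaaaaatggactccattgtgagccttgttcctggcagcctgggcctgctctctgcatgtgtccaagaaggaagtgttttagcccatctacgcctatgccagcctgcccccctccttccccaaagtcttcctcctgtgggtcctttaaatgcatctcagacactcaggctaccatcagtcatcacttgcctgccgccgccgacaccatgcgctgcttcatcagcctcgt
Lalba: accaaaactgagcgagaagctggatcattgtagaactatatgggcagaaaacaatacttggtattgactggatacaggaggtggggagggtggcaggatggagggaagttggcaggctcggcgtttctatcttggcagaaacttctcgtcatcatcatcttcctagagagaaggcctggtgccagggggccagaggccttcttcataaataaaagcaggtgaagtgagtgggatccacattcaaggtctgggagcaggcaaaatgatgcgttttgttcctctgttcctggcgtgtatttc
Csn2: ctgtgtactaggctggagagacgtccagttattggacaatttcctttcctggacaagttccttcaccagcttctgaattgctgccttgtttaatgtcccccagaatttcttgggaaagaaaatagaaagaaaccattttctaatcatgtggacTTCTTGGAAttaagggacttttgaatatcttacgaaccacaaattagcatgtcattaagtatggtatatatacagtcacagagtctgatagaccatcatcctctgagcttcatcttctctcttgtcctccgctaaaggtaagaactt
Reg3b: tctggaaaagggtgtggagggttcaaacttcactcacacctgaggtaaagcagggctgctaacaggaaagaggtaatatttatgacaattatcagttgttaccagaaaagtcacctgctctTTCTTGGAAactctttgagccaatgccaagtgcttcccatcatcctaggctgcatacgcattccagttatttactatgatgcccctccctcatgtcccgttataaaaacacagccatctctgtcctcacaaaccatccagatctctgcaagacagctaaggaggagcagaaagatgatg
The letters occurred once in the windows of Csn2 (TTCTTGGAA, 97 bases before the start) and Reg3b (TTCTTGGAA, 129 bases before it), and they were not in the windows of Wap and Lalba. Over all 33465 RefSeq windows of this length, 8.87% held them. In the milk gene list, 12 of the 14 tested genes matched a window, and 4 of their 13 windows (30.8%) held the letters: those of Csn2, Csn1s1, Glycam1 and B4galt1. Of the 97 genes named for this comparison 72 matched, and 7 of their 76 windows (9.21%) held them. The full estrogen response element, GGTCANNNTGACC, was in 0 of these 76 windows and in 0.0269% of all windows. A match only describes letters and is not evidence of binding.

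All 10 arrays were of the Affymetrix RAE230 design, and their globally scaled signals had medians between 222.8 and 256.7. Across probe sets, 2 arrays of 1 diet correlated with r from 0.934 to 0.966 (12 pairs), and pairs of different diets with 0.918 to 0.967 (33 pairs). Probe sets are not independent replicates. Integrity of the RNA was read from the 3′/5′ signal ratio of beta-actin, in which a high value means shorter transcripts. It was 4.67, 5.22, 7.77 and 2.94 on SPI 2, 3, 4 and 5, and 5.15, 3.74 and 2.83 on GEN 1, 3 and 5. SPI 4 was the highest and GEN 5 the lowest of all arrays, but the groups overlapped, with means of 5.15 ± 2.00 (SD, n = 4) and 3.91 ± 1.17 (SD, n = 3). An exact two-sided permutation test over the 35 assignments gave p = 0.371 for actin and p = 0.2 for GAPDH (0.371 for each after adjustment over both), where the smallest possible is 0.0286. Among defining markers, the luminal keratins and Epcam were bright. Adipocyte markers were uneven: Plin1 (24.7 to 103.1 on the 7 arrays) and Lep (6.6 to 17.4) were dim, whereas Cfd read 541.4 to 2151.8, and 13 of the 19 adipocyte genes on the array were bright enough to test. T cell markers were uneven as well, with Cd3d and Cd3e dim, Lck at 430 to 536.5 and Cd247 at 145.3 to 206.3. The B cell marker Cd79b was dim. Of markers the gland should lack, the colon genes Car1 (9.3 to 38) and Cdx1 (95.5 to 146.2) were dim as well, whereas Cdx2 read 314.7 to 455.4.

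Over all genes on the array, none passed correction for multiple tests. In limma, 0 of 9520 tested probe sets (0%) passed an adjusted p under 0.05, the lowest value being 0.132. The unadjusted p was under 0.05 for 757 (7.95%), against 476 expected by chance. SPI was higher in 352 of them and GEN in 405. It was under 0.01 for 159. Groups did not overlap for 809 probe sets (8.5%). Large differences were mostly towards lower values on SPI: 70 probe sets differed by more than 1 log2 unit, 16 higher and 54 lower. With each array centred on its median, SPI was higher in 612 and GEN in 272 at that unadjusted level, which makes 69.2% towards SPI where the deposited scaling gave 46.5%, so the balance of directions depended on the scaling. For a typical probe set the 95% interval extended 0.41 log2 units on each side (median). All differences below are log2 SPI minus GEN with the standard error of the fit, and none of the genes named passed the adjusted threshold.

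Genes of milk proteins had lower signals on SPI than on GEN in most members. Wap, which encodes a whey protein of rodents, had signals of 1079, 1112, 573.5 and 611.5 on SPI 2, 3, 4 and 5 against 3586, 2027 and 5212 on GEN 1, 3 and 5. Every GEN array lay above every SPI array. On the log2 scale Wap differed by -2.06 ± 0.33, which is 4.17-fold higher on GEN (adjusted p = 0.132 in limma), and the CAS arrays read 1489, 894 and 1424. Lalba, the alpha-lactalbumin that serves in lactose synthesis, had 9218, 6463, 5707 and 6462 on SPI and 16575, 12181 and 18514.5 on GEN. Its groups were also apart, SPI 2 being the highest on its diet and GEN 3 the lowest on its own. The difference was -1.18 ± 0.22 (adjusted p = 0.243 in limma), with CAS at 15784, 8299.5 and 11895.

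The caseins, which form the protein micelles of milk, pointed the same way but varied more. Csn2, beta-casein, read 9819, 8137, 2245 and 6787 on SPI and 14257, 12614 and 18876 on GEN, a difference of -1.35 ± 0.55. The low reading of SPI 4 weighed on this value: without SPI 4 it was -0.88, and without SPI 4 and GEN 5 it was -0.72. Csn3, kappa-casein, read 17311.5, 13358, 4528.5 and 9509 against 17131, 19587 and 21924 (-0.96 ± 0.38), and here SPI 2 lay within the GEN range. Csn1s1, an alpha-casein, read 21007.5, 22285, 9866 and 18909 against 24791, 22522 and 26451 (-0.51 ± 0.28), where the groups did not overlap but SPI 3 lay just under GEN 3. Without SPI 4, Csn3 stood at -0.58 and Csn1s1 at -0.25, and without SPI 4 and GEN 5 they stood at -0.49 and -0.19.

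Genes of milk fat and of secretion completed the list. Glycam1, a secreted mucin-like protein of the milk fat globule, had 1446.5, 1199, 768 and 1858 on SPI and 2106, 3058 and 3862 on GEN, without overlap (-1.22 ± 0.55). Plin2, which coats lipid droplets, had 4477, 4311, 3561 and 4313 and 5580.4, 5178 and 7546 (-0.54 ± 0.18), and Xdh, needed for fat globule secretion, differed by -0.49 ± 0.19. Without SPI 4 and GEN 5 Plin2 stood at -0.30. Of the 14 tested genes of this list (19 on the array, 5 too dim), 12 were lower on SPI, where 51.1% of all 7119 genes were higher. At an unadjusted p under 0.05, 7 were lower, against 3.86% of all genes, and 0 higher, against 3.95%. The list median was -0.50 and that of all genes 0.01. The 7 became 3 without SPI 4 and 2 without GEN 5. Mfge8 (-0.03), another fat globule protein, Clu (-0.09) and Folr1 (0.12) hardly differed, and B4galt1, which pairs with alpha-lactalbumin to make lactose, was at 0.33 ± 0.19.

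**Figure D1:**
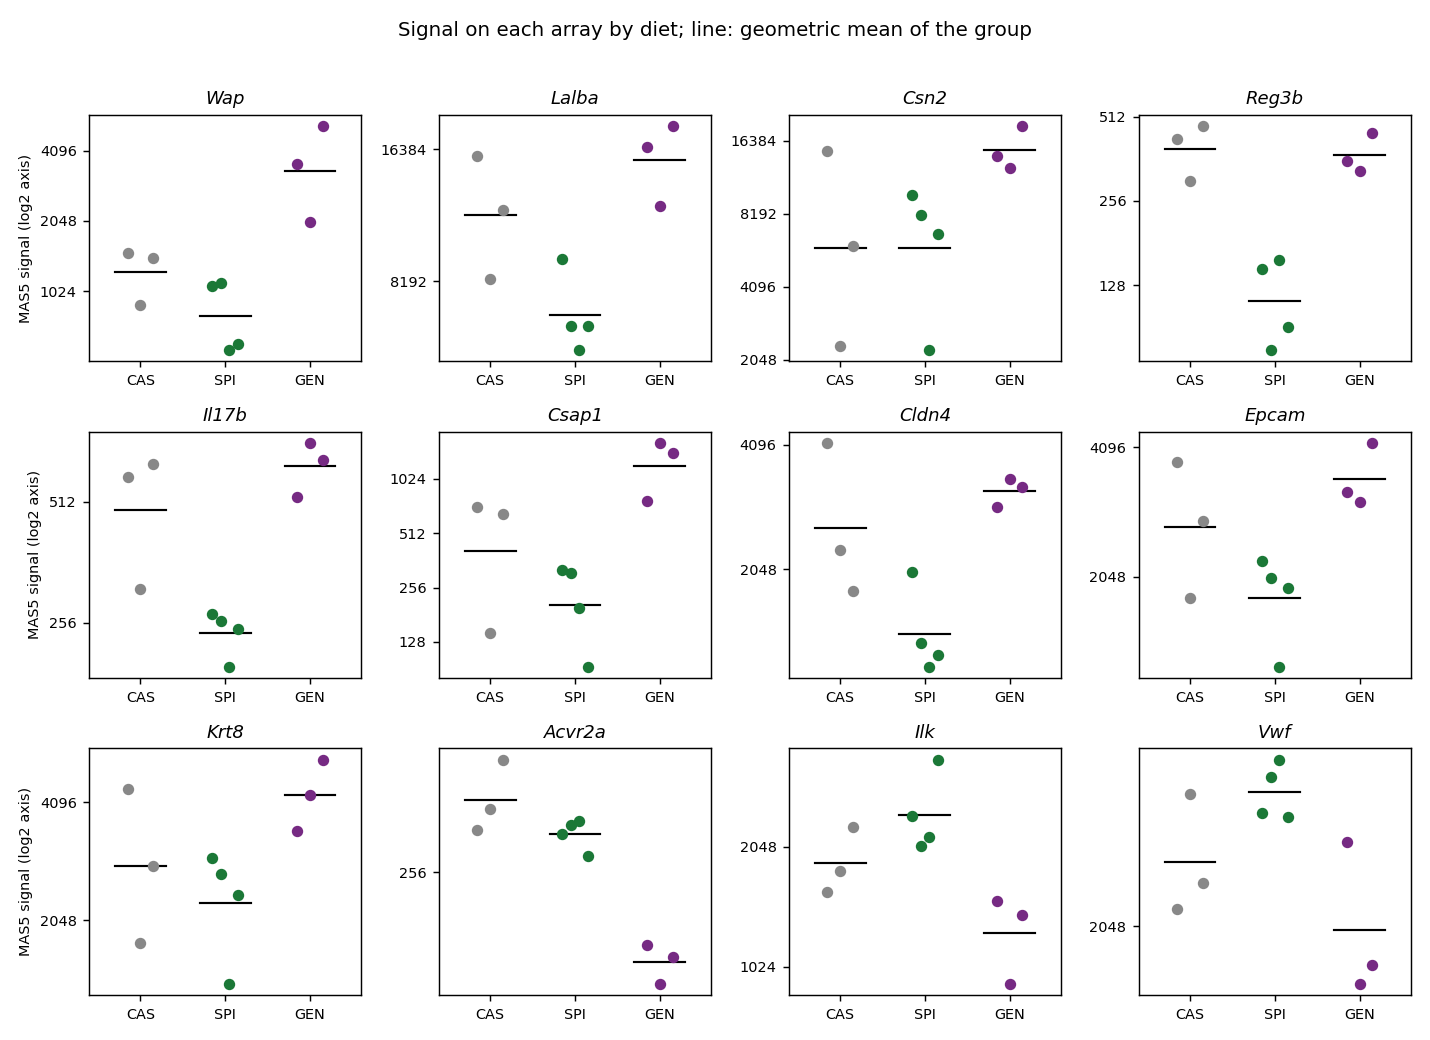
MAS5 signal (log2 axis) of 12 genes on each array of the CAS (3 arrays, grey), SPI (4, green) and GEN (3, purple) diets, with a line at each group's geometric mean. All SPI points lie below all GEN points for Wap, Lalba, Csn2, Reg3b, Il17b, Csap1, Cldn4, Epcam and Krt8, and above them for Acvr2a, Ilk and Vwf.

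Luminal epithelial genes had lower values on SPI in 15 of 16 tested members, 8 of them at an unadjusted p under 0.05. Epcam, the epithelial adhesion molecule, had 2235, 2039.6, 1266 and 1932 on SPI and 3219.7, 3052 and 4197 on GEN, a difference of -0.92 ± 0.24 (adjusted p = 0.461 in limma). The luminal keratins, which build the filaments of these cells, went with it: Krt8 read 2941, 2687, 1409 and 2369.6 against 3461, 4270.1 and 5259.7 (-0.91 ± 0.30), and Krt18 differed by -0.64 ± 0.22. For all 3 genes the groups were apart, and SPI 4 was the lowest array of all. In a bulk sample, fewer luminal cells and less RNA per luminal cell cannot be told apart.

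Cldn4 and Cdh1 had the lowest values of the luminal list. Cldn4, a tight junction claudin, read 2016.5, 1361, 1191 and 1273 on SPI and 2897, 3389 and 3240.2 on GEN, -1.15 ± 0.25 or 2.22-fold higher on GEN (adjusted p = 0.40 in limma). Cdh1, the E-cadherin of adherens junctions, read 545, 395, 229 and 659 and 798, 761 and 1314 (-1.13 ± 0.31). Neither gene's groups overlapped, and without SPI 4 and GEN 5 Cldn4 stood at -1.05 but Cdh1 at -0.58. The claudin Cldn3 differed by -0.74 ± 0.28, the tetraspanin Cd9 by -0.79 ± 0.21 and the protease inhibitor Spint2 by -0.58 ± 0.22. Cldn7 (-0.28 ± 0.43) and Prom1 (-0.18 ± 0.17) overlapped between diets.

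Of 16 tested luminal genes (22 on the array), 15 were lower on SPI, with a median of -0.61. At an unadjusted p under 0.05, 8 were lower (5 without GEN 5), against 3.86% of all genes, and 1, Areg, was higher, against 3.95%. The same shares over all genes, and the 51.1% of genes that were higher on SPI, are the background of every list count that follows. The mean log2 signal of the list was 10.49, 10.13, 9.47 and 10.05 on SPI 2, 3, 4 and 5 and 10.47, 10.44 and 10.96 on GEN 1, 3 and 5. SPI 2 lay within the GEN range, SPI 4 lowest and GEN 5 highest. The same 2 arrays held the highest and the lowest actin ratio, and the part of RNA integrity in the result was not tested. Without them the luminal median was -0.23 and the milk median -0.20, with 4 luminal and 2 milk genes at an unadjusted p under 0.05. Epcam then stood at -0.60 and Cd9 at -0.47.

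**Figure D2:**
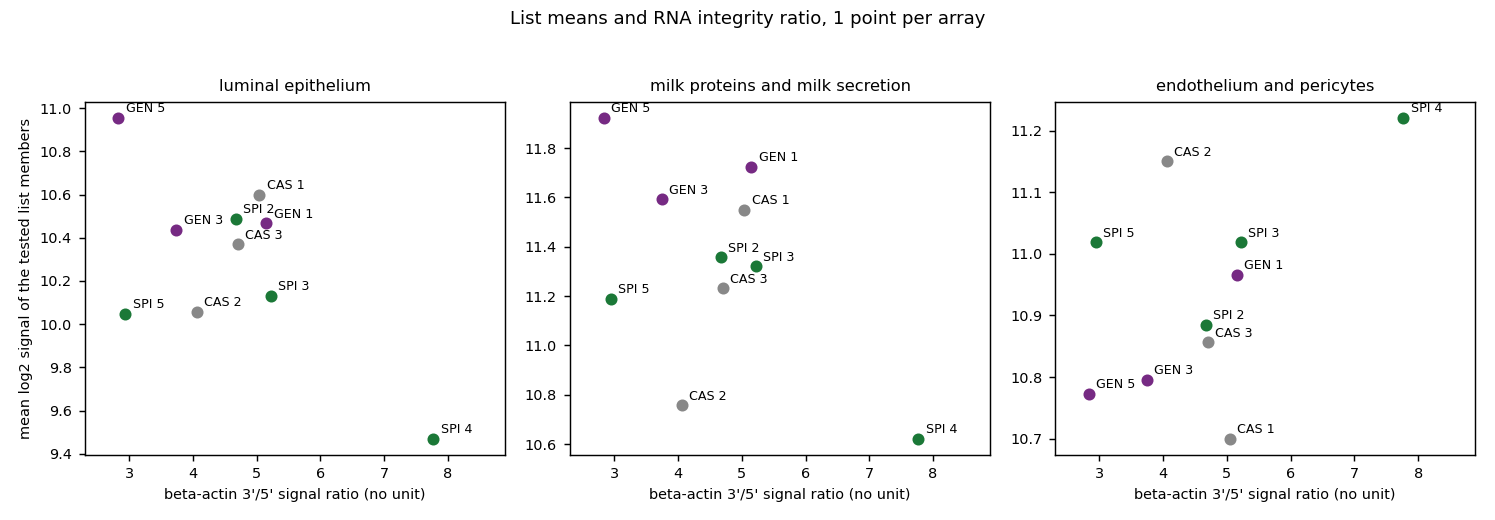
Mean log2 signal of the tested genes of 3 lists against the beta-actin 3′/5′ signal ratio (no unit), 1 point per array. SPI 4, at a ratio of 7.77, has the lowest luminal and milk means and the highest endothelial mean, and GEN 5, at 2.83, has the highest luminal and milk means.

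Basal and myoepithelial genes were mixed, with 10 of 17 tested members lower on SPI and 7 higher. Trim29, a regulator found in basal epithelium, read 271, 210, 173 and 112 against 441, 333 and 381 (-1.07 ± 0.26), and Lgals7, a galectin of stratified epithelia, 428, 505, 205.5 and 468 against 876.5, 509.9 and 1057 (-1.04 ± 0.35). In both the groups were apart, though SPI 3 and GEN 3 nearly met for Lgals7. Krt5, the defining basal keratin, read 1062, 1184, 443 and 854 against 1780.4, 1072 and 1665 (-0.82 ± 0.30) with overlap. It stood at -0.52 without SPI 4 and at -0.43 without SPI 4 and GEN 5, and Lgals7 then stood at -0.52. Krt14 (-0.83 ± 0.46) and Krt15 (-0.93 ± 0.46) had wide errors. Genes of the contractile apparatus included Acta2 0.14, Myl9 0.26, Tagln 0.09 and Myh11 0.44. Of the 17 genes 4 were lower and 0 higher at an unadjusted p under 0.05, and the median was -0.36. That count was 2 without GEN 1, 8 without GEN 3 and 1 without GEN 5, and the median was 0.0028 without SPI 4 and GEN 5.

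Hormone receptors gave little to compare. Esr1, Esr2 and Pgr, the receptors of estrogen and progesterone, were too dim to be tested. Prlr, the prolactin receptor, read 3325, 1832.5, 1357 and 921 on SPI and 1835, 1960.3 and 2359 on GEN, so that the SPI arrays spanned the whole GEN range (-0.30 ± 0.32). It stood at -0.63 without SPI 2 and at -0.01 without SPI 5. Jak2, the kinase bound to that receptor, read 272, 207.5, 281 and 367 against 382, 441 and 392 without overlap (-0.55 ± 0.20), and Stat5a differed by -0.11 ± 0.17. Of the 8 tested genes of prolactin and growth hormone signalling, 5 were lower, 1 of them at an unadjusted p under 0.05.

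Areg, the amphiregulin gene that estrogen induces in luminal cells, was on the other side from the rest of the luminal list. It read 956, 539.7, 674.5 and 698 on SPI and 357, 618 and 469 on GEN, a difference of 0.58 ± 0.21, and only SPI 3 lay within the GEN range. Without GEN 1 it stood at 0.38. Of the 13 tested estrogen and progesterone targets, 9 were higher on SPI and 4 lower, with a median of 0.05. The cyclin Ccnd1 was at 0.30 ± 0.14, with 1 further probe set at 0.38 and another at -0.26. Ptges, which makes prostaglandin E, differed by -1.03 ± 0.36 with overlap between the diets, and by -0.50 in its other probe set. Erbb3, a receptor of the EGF family to which amphiregulin belongs, read -0.52 ± 0.23 without overlap, and Egfr -0.43 ± 0.26.

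Secreted defence and antigen genes were among the lowest on SPI. Reg3b, an antimicrobial lectin, read 146.5, 75, 158 and 90.8 on SPI and 354, 328 and 448 on GEN. The lowest GEN array was above the highest SPI array by a wide margin, and CAS read 427, 302 and 474. The difference was -1.74 ± 0.27 (adjusted p = 0.132 in limma). Il17b, a cytokine of the interleukin 17 family, read 269, 259, 198 and 246 against 528, 719 and 652, with both groups narrow and apart (-1.38 ± 0.23, adjusted p = 0.135 in limma). With only the SPI and GEN arrays in the fit, Il17b passed at an adjusted p of 0.0325 in limma, within a range of 0.0281 to 0.99982 over its alternatives.

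RT1-CE16, a class I histocompatibility antigen, read 204, 54.8, 56.1 and 33.9 on SPI and 211, 279 and 376 on GEN, and SPI 2 almost reached GEN 1 (-2.05 ± 0.47). Without SPI 2 it passed at -2.58 (adjusted p = 0.0184 in limma, the lowest of a range up to 0.99982 over its alternatives). Its probe set is of a kind that can bind related transcripts. Reg3b on every SPI array and RT1-CE16 on all but SPI 2 read below 162, the lowest mean tested, so the sizes of their differences are uncertain. Of 10 tested genes of mucosal defence 8 were lower and Reg3b alone was at an unadjusted p under 0.05. Of 14 tested MHC genes 10 were lower, 2 of them at that level: RT1-CE16 and RT1-Bb (-1.76 ± 0.73). RT1-Bb read 875.8, 69, 100.4 and 95.9 on SPI and 339, 874.4 and 489 on GEN. The groups overlapped, with SPI 2 above every GEN array. SPI 3, 4 and 5 read below 162, so the size of this difference is uncertain too. Another probe set of RT1-Bb read -0.16.

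The activin and BMP list divided evenly between the diets, with 16 of 32 tested genes higher on SPI and 16 lower. Its members include receptors and ligands of the TGF-beta superfamily, which take part in branching of the ducts. Acvr2a, an activin type 2 receptor, read 306, 319, 325 and 277 on SPI and 182, 152 and 172 on GEN. Both groups were tight and far apart, and CAS (311, 344 and 434) lay above every GEN array. The difference was 0.87 ± 0.17, or 1.82-fold (adjusted p = 0.284 in limma), and 0.85 without SPI 4 and GEN 5. Bmp4, a ligand of the stroma and basal cells, read 1052, 994, 796 and 1036 against 659, 671 and 611 (0.58 ± 0.14). The groups did not overlap.

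The rest of that pathway was mixed. Bmpr1a, a BMP type 1 receptor, was lower, with 279.7, 299.5, 327 and 267 on SPI and 563, 410.3 and 327 on GEN (-0.53 ± 0.22), although SPI 4 and GEN 5 met, and it stood at -0.32 without GEN 1. Smad5, which carries the BMP signal to the nucleus, was at 0.33 ± 0.14, and the secreted binding protein Fstl1 at 0.38 ± 0.15, with 1 further probe set of Fstl1 at 0.43 and another at -0.43. At an unadjusted p under 0.05, 4 of the 32 were higher and 1 lower, and the median was 0.01.

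Ilk and Bcar1, which belong to no list described here and came from the naming rule, were higher on SPI. Ilk, the integrin-linked kinase of focal adhesions, read 2447, 2058, 2171.5 and 3394 against 1499, 929 and 1383 (0.99 ± 0.21, adjusted p = 0.40 in limma), and Bcar1, an adaptor of the same structures, differed by 0.81 ± 0.25. Each Ilk reading on SPI exceeded each on GEN, and the value was 1.13 without SPI 4 and GEN 5. In the extracellular matrix list, Col6a3 and Col6a2, chains of collagen VI, differed by 0.52 ± 0.14 and 0.60 ± 0.19, and the basement membrane proteoglycan Hspg2 by 0.61 ± 0.21. Col6a3 read 5963, 6538, 8014 and 6316 on SPI and 5276, 4137 and 4554 on GEN, without overlap. Of 45 tested matrix genes 25 were higher and 20 lower, a division close to that of all genes (51.1% higher), and the median was 0.04. At an unadjusted p under 0.05, 6 were higher, against 3.95% of all genes, and 0 lower, against 3.86%. Without GEN 3 that count was 3.

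Among endothelial genes, Vwf, the von Willebrand factor of vessel walls, read 3166, 3632, 3889 and 3119.5 on SPI and 2836, 1641 and 1765 on GEN. GEN 1 came nearest to SPI, and the groups were apart (0.77 ± 0.20, adjusted p = 0.461 in limma). The endothelial claudin Cldn5 differed by 0.50 ± 0.18, the TGF-beta co-receptor Eng by 0.44 ± 0.17, Plvap by 0.43 ± 0.20 and the adhesion molecule Mcam by 0.68 ± 0.26. Another probe set of Mcam read -0.17, and without GEN 3 its value was 0.33. Without SPI 4 and GEN 5, Cldn5 stood at 0.31 and Eng at 0.25. Kdr (0.09), Emcn (-0.00) and Ptprb (-0.06), further endothelial genes, differed little. Of 20 tested genes 14 were higher, 5 of them at an unadjusted p under 0.05, with a median of 0.11. The 5 became 3 without SPI 4, 1 without GEN 3 and 2 without GEN 5. The list mean was 10.88, 11.02, 11.22 and 11.02 on SPI 2, 3, 4 and 5 and 10.97, 10.80 and 10.77 on GEN 1, 3 and 5, SPI 4 being highest.

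**Figure D3:**
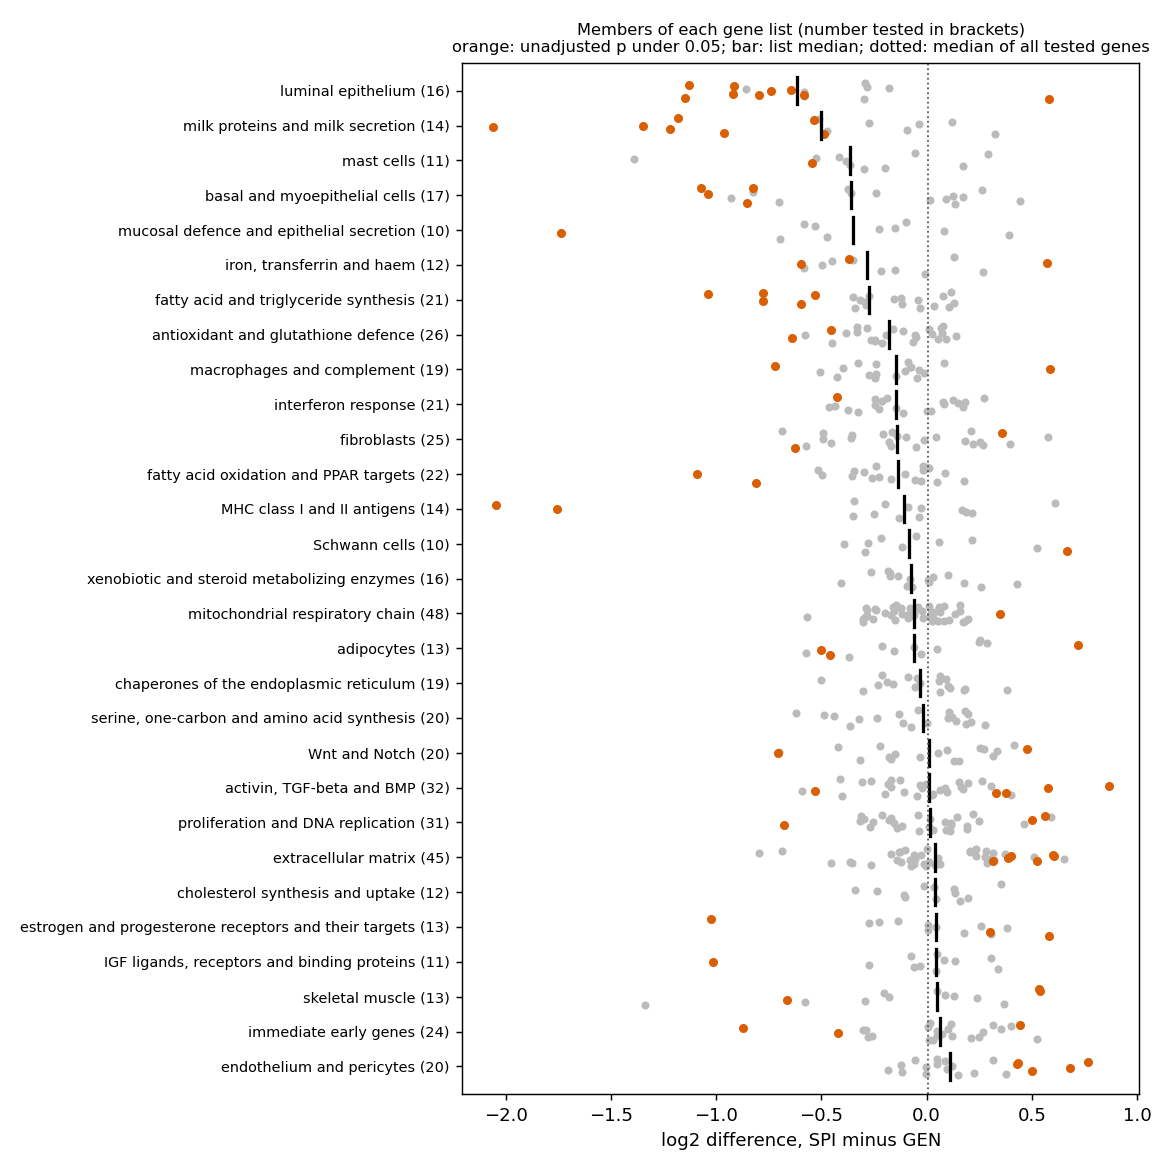
Log2 difference (SPI minus GEN) of each tested member of 29 gene lists with 10 or more tested members, ordered by list median (bar). Orange points have an unadjusted p under 0.05 and the dotted line is the median of all tested genes (0.01). The luminal (-0.61) and milk (-0.50) medians are lowest and the endothelial median (0.11) is highest.

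Lipid genes leaned lower on SPI. Fasn, the fatty acid synthase, read 1599, 1341, 972.5 and 1127 on SPI and 2511, 1152.5 and 3297 on GEN (-0.78 ± 0.30), but GEN 3 lay within the SPI range. The value was -1.22 without GEN 3 and -0.46 without GEN 5. Its other probe set was at -0.65, and there the groups did not overlap. Acsl1, which activates fatty acids, differed by -1.04 ± 0.35 (-1.40 by its other probe set), and Olah, the thioesterase that releases the medium chains of milk fat, by -0.60 ± 0.26. Without SPI 4 and GEN 5 Acsl1 stood at -0.53 and Olah at -0.21. Of 21 tested genes of fatty acid and triglyceride synthesis 16 were lower, 5 of them at an unadjusted p under 0.05, with a median of -0.27. By the brightest probe set, groups did not separate for any of these 21, where they did for 8.5% of all tested probe sets.

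In fatty acid oxidation, Pdk4, which limits glucose oxidation, read 517, 283.5, 194 and 552 against 494, 903 and 957 (-1.09 ± 0.34), and SPI 2 and SPI 5 overlapped GEN 1. It stood at -0.63 without SPI 4 and GEN 5. Acaa2, a mitochondrial thiolase, read 1136, 663, 1103.5 and 755 against 1195, 1841 and 1721, apart by a small margin (-0.81 ± 0.22). Those were the only members of the 22 tested at an unadjusted p under 0.05; 17 were lower and the median was -0.13. Of 13 adipocyte genes 8 were lower and 5 higher (median -0.06). At an unadjusted p under 0.05, 2 were lower, Gpd1 (-0.46 ± 0.17) and Sncg (-0.50 ± 0.23), and 1 was higher, Lipe, the hormone-sensitive lipase (0.72 ± 0.29). The groups were apart for Gpd1 and overlapped for Sncg and Lipe. With arrays left out, Gpd1 ran from -0.56 to -0.29, Sncg from -0.63 to -0.23 and Lipe from 0.50 to 0.99. Cholesterol synthesis had 0 of 12 genes at that level and a median of 0.04.

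Immune cell lists held few members at an unadjusted p under 0.05. Of 19 macrophage and complement genes 17 were lower, but at that level there were 1 lower, the endotoxin co-receptor Cd14 (-0.72 ± 0.30), and 1 higher, the scavenger receptor Stab1 (0.59 ± 0.25). Their median was -0.15. Without SPI 4 and GEN 5, Cd14 stood at -0.23 and Stab1 at 0.26. Of 11 mast cell genes 9 were lower (median -0.36), with Slc18a2, a monoamine transporter, at -0.54 ± 0.22. Slc18a2 read below 162 on SPI 2, 3 and 4, so the size of its difference is uncertain. The interferon response list had 13 of 21 members lower (median -0.14), with Irf7, a regulator of that response, at -0.43 ± 0.19. Only 4 of 17 T cell genes and 0 of 6 B cell genes on the array were bright enough to test.

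Few members of the antioxidant, proliferation, Schwann cell, fibroblast and immediate early lists had an unadjusted p under 0.05. Gsta1, a glutathione transferase, read 643, 642, 545 and 806 on SPI and 855, 1172 and 1051.5 on GEN (-0.64 ± 0.17), without overlap. Antioxidant genes were lower in 18 of 26 members, 2 of them at an unadjusted p under 0.05, against 3.86% of all genes (median -0.18). Mcm4 (0.50 ± 0.16) and Mcm6 (0.56 ± 0.21), parts of the helicase that opens DNA for replication, were higher, while the mitotic kinase Plk1 was lower (-0.68 ± 0.30). Without SPI 4 and GEN 5, Mcm6 stood at 0.86 and Plk1 at -0.33. The 31 proliferation genes divided into 17 higher and 14 lower, with a median of 0.02. Ngfr, a neurotrophin receptor of Schwann cells and myoepithelium, read 286, 262, 259 and 252 against 179.7, 141 and 184, apart (0.67 ± 0.19). It was the only 1 of 10 tested Schwann cell genes at an unadjusted p under 0.05; 4 were higher and 6 lower, with a median of -0.08. Apod, a lipid-carrying apolipoprotein in the fibroblast list, read 393, 337, 331 and 351 against 510.2, 495 and 632 (-0.62 ± 0.17). Both diets lay above CAS at 263, 214 and 174. Of the 25 tested fibroblast genes 9 were higher and 16 lower (median -0.14). At an unadjusted p under 0.05, 1 was lower, Apod, and 1 was higher, Vim (0.36 ± 0.11), whose groups were also apart. Egr3, an immediate early factor, read 192, 242, 153 and 232 against 390.4, 332 and 387.5 (-0.87 ± 0.20), and Ier3, another immediate early gene, differed by -0.42 ± 0.16. Of the 24 tested genes of that list 18 were higher and 6 lower (median 0.06), with 2 lower, Egr3 and Ier3, and 1 higher, Dusp1 (0.44 ± 0.16), at an unadjusted p under 0.05. The other probe set of Dusp1 read -0.88.

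The naming rule found 107 genes at an unadjusted p under 0.01 without overlap, 48 higher on SPI and 59 lower, and took the 12 at each end. These values chose the genes and are given as a description. The lowest was Csap1, the common salivary protein 1 gene, with 321, 306.5, 197 and 93.1 on SPI and 775, 1622 and 1418 on GEN (-2.56 ± 0.54). SPI 5 was the lowest array and GEN 3 the highest. The others not yet given were Scgb1d2-ps1, an annotated secretoglobin pseudogene (-1.44), Irf2bpl (-1.29), Plekhb1 (-1.22) and the kinase Mapkapk3 (-1.10). Adjusted p in limma ran from 0.132 to 0.502 among these 12. At the upper end were Uqcc3, an assembly factor of respiratory complex III (1.07), Tmub2 (1.02), Acy3 (0.93), the Nogo receptor relative Rtn4rl1 (0.82), the vesicle SNARE Sec22b (0.80), the homeobox gene Meis2 (0.79), the centromere gene Cenpx (0.77) and the metalloproteinase Mmp17 (0.74). Their adjusted p in limma, with Ilk, Acvr2a, Bcar1 and Vwf, ran from 0.284 to 0.558. Mmp17 stood at 0.47 without SPI 4 and GEN 5. All GEN signals of Uqcc3 and Meis2 were below 162. So were those of Acy3 on GEN 3 and GEN 5, and of Acvr2a and Cenpx on GEN 3. At the lower end, Irf2bpl on SPI 3 and SPI 5, Mapkapk3 on SPI 4 and SPI 5 and Csap1 on SPI 5 also read below 162. The sizes of these differences are uncertain.

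The mean of the CAS arrays lay between those of SPI and GEN for 9 of the 12 lowest genes and for 9 of the 12 highest. For the other 3 lowest genes (RT1-CE16, Reg3b and Mapkapk3) CAS was higher than GEN, and for 3 of the highest (Uqcc3, Acvr2a and Meis2) it exceeded SPI. As these genes were picked by their SPI and GEN values, their place relative to CAS is a description.

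**Figure D4:**
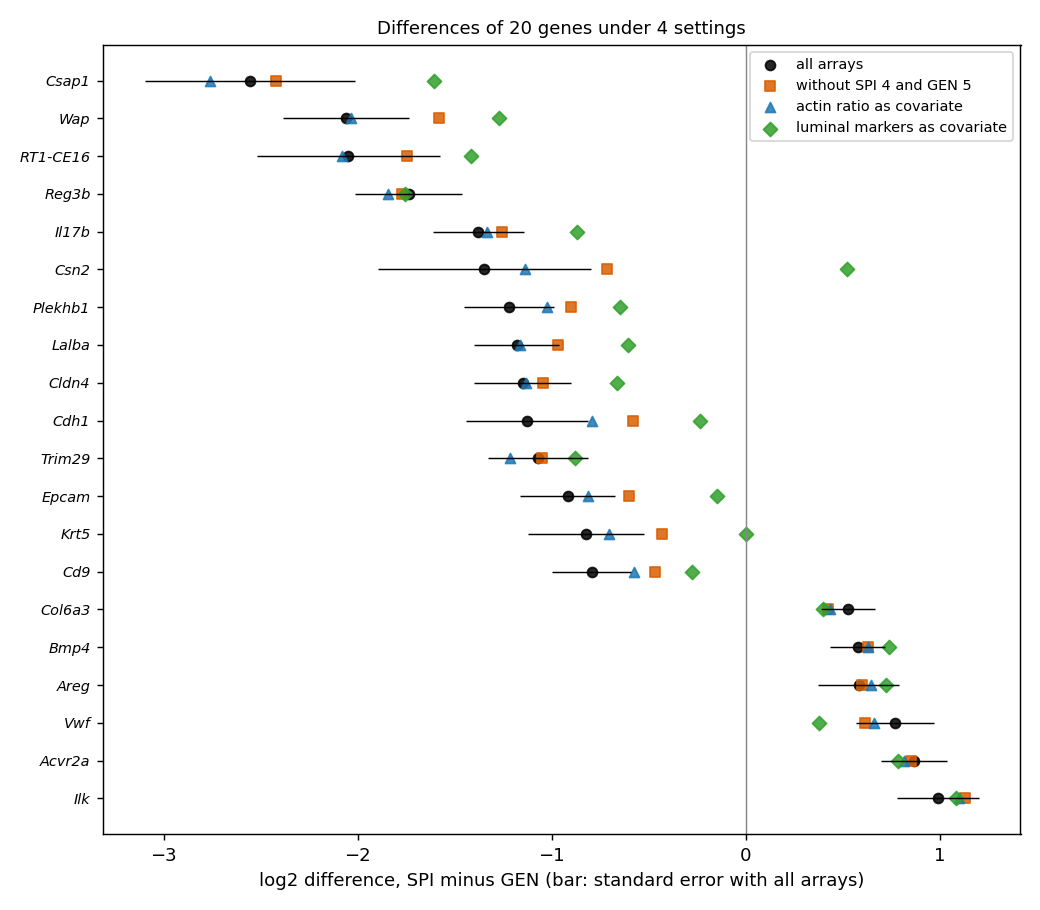
Log2 difference (SPI minus GEN) of 20 genes with all arrays (black, bar: standard error), without SPI 4 and GEN 5 (orange), with the log2 actin ratio as covariate (blue) and with the mean of 5 luminal markers as covariate (green). Reg3b, Acvr2a, Ilk and Bmp4 keep close values, whereas Csn2 moves from -1.35 to 0.52 with the luminal markers. Epcam moves from -0.92 to -0.15, but Epcam and Cdh1 are among the 5 markers, so their moves are built into that covariate.

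How far the milk and luminal differences moved together was described with the mean of Krt8, Krt18, Krt19, Epcam and Cdh1 as a covariate, chosen after the data were seen. With it Wap stood at -1.27, Lalba at -0.61 and Csn2 at 0.52. Reg3b (-1.76), Acvr2a (0.78), Ilk (1.08) and Bmp4 (0.74) stayed near their values without the covariate. Il17b moved to -0.87, Csap1 to -1.60 and Cldn4 to -0.66. The covariate was itself lower on SPI, so these values take out any dietary difference it shares. With the log2 actin ratio as covariate instead, Wap stood at -2.03, Lalba at -1.16, Reg3b at -1.84 and Acvr2a at 0.81. Luminal genes moved more, Cdh1 to -0.79, Cd9 to -0.58 and Epcam to -0.82, and Csn2 moved to -1.14. The 757 probe sets at an unadjusted p under 0.05 became 520 with that covariate.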

How the data were processed

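RNA from 10 pools of rat mammary gland was measured on Affymetrix RAE230 arrays. The deposited values were 1 linear signal intensity for each probe set and array. MAS5 produced them, per the submitters' processing notes, and its version was not given in the sources used here. Because MAS5 applies 1 scaling factor to an array, differences in total RNA are not visible, and the table used held no detection calls. It had 15923 probe sets, of which 57 controls were left out. Values under 1 (0.0637%) were set to 1 before log2, and the lowest 40% by mean log2 signal were left out, so that 9520 were tested, the dimmest with a geometric mean signal of 162. The platform annotation gave 1 gene symbol for 12783 of 15866 probe sets, several for 312 and none for 2771; genes were named only from the first kind, by the brightest probe set.

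Differences were fitted with limma 3.58.1 in R 4.3.3 (lmFit, eBayes with trend) over all 10 arrays, with 7 residual degrees of freedom, and adjusted by Benjamini-Hochberg over 9520 probe sets. The fit was run on simulated data with planted differences and independent noise for each probe set, which leaves out variation shared by probe sets. With no probe set past an adjusted p of 0.05, the rule named the 12 highest and 12 lowest genes at an unadjusted p under 0.01 without overlap. It added up to 4 members at an unadjusted p under 0.05 of each of 35 lists, or otherwise the 2 with the smallest p, the receptors Esr1, Esr2, Pgr and Prlr, and 4 milk genes. Further list members are named to describe their list and were chosen with their values in view. The comparison, the lists and the rule were chosen with earlier results of these data known. No 2 of the 10 arrays shared more than 0.214% of values, so none was a copy of another. That does not show which arrays share a pool. Alternatives changed the floor, filter, scaling, variance model, arrays and covariates. The 72 of 97 named genes found in the RefSeq promoter table were searched for motifs.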

Additional observations from a re-analysis of the deposited data

Results flagged for a closer look

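Among 132 results examined for 1 SPI array standing apart from the other 3, 4 were picked out by the gap of the extreme array to its nearest neighbour as a share of the group's range on the log2 scale. Chance picks about 1 in 20 groups. Sec22b had a share of 0.955, with SPI 5 lowest at 525.4. Aldh2, a mitochondrial aldehyde dehydrogenase, had 0.929, with SPI 3 highest at 1429. RT1-Bb, a class II antigen chain, had 0.852, with SPI 2 highest at 875.8. Plin2 had 0.835, with SPI 4 lowest at 3561. Groups of 3 arrays were not examined.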

How the results depend on the processing

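The 97 named genes were refitted under up to 22 other settings, giving 2108 values. Of these 2092 kept their direction and their side of the threshold, 3 passed it (Il17b in 2 settings, RT1-CE16 in 1), and 13 changed sign. All 13 sign changes came with the luminal markers as covariate, which was chosen after the data were seen: Csn2 0.52, Csn1s1 0.40, Csn3 0.29, Shmt1 0.25, Pdia4 0.24, Perp 0.21, Cd14 0.17, Dhcr7 0.13, Olah 0.11, Prlr 0.091, Aldh1a2 0.042, Slc40a1 0.040 and Lgals7 0.010. With that covariate the list medians were 0.13 for milk, 0.074 for luminal and -0.083 for endothelial genes, and 287 probe sets had an unadjusted p under 0.05. The luminal list holds markers that make up the covariate, so the shrinking of its median was built in. The cause of the sign changes was not tested.

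The count of 757 at an unadjusted p under 0.05 was 1213 with no filter on dim probe sets, where more were tested, and 498 with the lowest 60% left out, where fewer were. It was 384 without SPI 4 and GEN 5, when Rpl37a passed as 1 adjusted call and the milk and luminal medians were -0.20 and -0.23. Leaving out 1 array at a time gave 487 to 1091, with 501 without SPI 4, 496 without GEN 3 and 487 without GEN 5. It gave 0 to 1 adjusted calls: Il17b without CAS 2, the probe set 1379497_at without CAS 3, RT1-CE16 without SPI 2 and Rpl37a without GEN 5. Medians then ran from -0.63 to -0.33 for milk, -0.74 to -0.44 for luminal and 0.079 to 0.18 for endothelial genes. With only the SPI and GEN arrays in the fit, 2 probe sets passed, Il17b and 1379497_at, and 830 had an unadjusted p under 0.05.

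Replicate numbers recur between diets. Deviations of same-numbered arrays from their diet means had r from -0.183 to 0.155 over 6 pairs. For arrays of different number and diet r ran from -0.396 to 0.302 over 27 pairs. With so few pairs these values cannot settle whether the numbers pair the arrays, and the main fit left them unpaired. With the replicate block the count was 286, with 0 adjusted calls and 3 residual degrees of freedom. Csn2 then stood at -0.42, Krt5 at -0.37 and Epcam at -0.58, whereas Wap stood at -1.78 and Reg3b at -1.93.

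The number of arrays limits the precision, and sizes are uncertain where a group reads below 162. Single arrays also read below 162 for further genes named above. Among them were Trim29 on SPI 5, Egr3 and Plk1 on SPI 4, Erbb3 on SPI 4 and SPI 5 and Ngfr on GEN 3. Differences between diets were taken within a probe set. Signals of different probe sets were ranked only to filter dim ones, to pick the brightest of a gene and to call markers bright or dim.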

Other observations

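Outside the naming rule, and chosen after their values were seen, a few probe sets ranked near the top of the comparison. Probe set 1379497_at, which has no gene in the annotation used here, read 4306, 3032, 4748 and 2228.5 on SPI 2, 3, 4 and 5 and 985, 702 and 581.5 on GEN 1, 3 and 5. All SPI arrays lay above all GEN arrays, and the difference was 2.22 ± 0.38 (SE, adjusted p = 0.135 in limma), with CAS at 1461, 2312 and 626.

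Further junction genes outside the luminal list were lower on SPI without overlap. Lsr, which marks tricellular junctions, read 459, 356, 299 and 459 against 599.6, 686 and 765 (-0.81 ± 0.18), and the tight junction gene Ocln 450.3, 439, 333 and 401 against 659, 634 and 739.8 (-0.75 ± 0.18). Gstt3, a glutathione transferase, read 175, 182, 161 and 163.5 against 343, 286 and 340.3 (-0.92 ± 0.20), with a narrow SPI group. Mmrn2, an endothelial matrix protein, was higher on SPI at 1825.5, 1881, 1891 and 2090.2 against 1529, 1183 and 1236 (0.55 ± 0.14). Rpl37a, a ribosomal protein gene, read 12456, 9421.5, 12234 and 10563 against 25036, 25145 and 12784 (-0.85 ± 0.21), and GEN 5 stood with the SPI arrays rather than with GEN 1 and GEN 3. None of these passed the adjusted threshold with all arrays.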
